A study of Brassica napus with 12 samples.

Results

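Chromosome A10 of rapeseed (Brassica napus) was followed gene by gene in 4 groups of apical meristems. Its members are all genes that the deposited count table places on A10, 3021 of the 100919 genes in the table, between positions 23285 and 26584300 in the coordinates of that table. For 2258 of them the table names a best protein match, and gene names below are those matches; such a name gives the gene family and need not give the exact Arabidopsis counterpart. The chromosome was chosen by measured values, the levels of Slike and Zlike relative to the parents in earlier results of these data, so levels of Slike and Zlike along A10 are given as a description, without a test of the chromosome or of its stretches.

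Whole apical meristems were collected while inflorescence primordia were giving way to the first flower primordia. ZS11 is labelled wild type and SX3 is labelled a natural mutant with another inflorescence and plant architecture. Zlike and Slike are plants of a second backcross generation (BC2) between these lines, labelled WT and mutant in turn, with contrasting architecture. All plants were untreated and grown at an experimental station, and each group has 3 libraries. The labels give neither the recurrent parent, nor the age of the plants, nor how many plants went into a library, so a p-value speaks only of the spread among these libraries, and that spread may be technical. The title of the series names a subtilase gene, BnaSBT, as the subject of the mapping, without a copy or a position.

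Brassica napus is an allotetraploid: its A chromosomes come from a relative of Brassica rapa and its C chromosomes from a relative of Brassica oleracea, and most genes exist as near-identical A and C copies called homoeologs. In a backcross, chromosomes of the parents are passed on in long blocks separated by crossovers, and a plant of BC2 holds, at any place, either only recurrent-parent DNA or 1 chromosome of each parent. Where the parents differ in the activity of a gene for reasons that lie close to that gene, the level in a backcross plant follows the block it sits in, whereas genes that respond to a distant regulator or to the state of the tissue need not follow it. No genotype was measured here, and these files hold transcript levels only.

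Libraries held between 13445924 and 17778731 counts, so that 0 counts in a library are compatible with up to 0.169 to 0.223 CPM (counts scaled to library size) for counting error alone. Within a group the libraries differed beyond what counting error gives (chi-square of 1.35 to 1.47 per gene), and each was kept as a replicate. The labelled tissue was checked against markers over the whole table: 16 genes named STM, KNAT1, WUS, CLV3 or CLV1, which mark the shoot meristem, summed to 435 to 444 CPM in ZS11, 351 to 363 in SX3, 292 to 300 in Zlike and 249 to 259 in Slike. The 94 genes of light harvesting and Rubisco small subunits, markers of green tissue, summed to 9437 to 9449 CPM in ZS11, 3719 to 3770 in SX3, 4824 to 4992 in Zlike and 5804 to 5866 in Slike, and 46 vascular genes to 238 to 250, 176 to 180, 197 to 203 and 172 to 174. The members of these sums did not all move alike. The 4 STM genes were at 268 CPM in ZS11 and 147 in SX3 and the 2 CLV1 genes at 78.4 and 74.7, whereas KNAT1 was at 89.7 and 131, WUS at 1.01 and 2.80 and CLV3 at 0.823 and 1.13. Of the vascular sum, 32 genes named APL gave 225 CPM in ZS11 and 150 in SX3, while CESA7 was at 16.3 and 21.8, SUC2 at 2.05 and 5.08 and NAC030 at 0.265 and 0.475. Of the defining anther genes, AMS (3 genes) was at 0 in ZS11 and SX3, at 0.0637 CPM or less in Zlike and at 10.9 to 11.7 in Slike, DYT1 (3 genes) was at 0.465 or less outside Slike and at 10.8 to 11.6 in Slike, and the 2 genes named MS1 by the male sterility protein were at 0 in every library. Tissue markers thus moved with the groups, and their part in the results below was not tested; in such bulk samples fewer cells of a type and less RNA per cell cannot be told apart.

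Between the parents, A10 genes differed somewhat more often than all genes tested, and only A02 (80.1%) and A04 (77.3%) had a higher share of calls. SX3 and ZS11 differed at 1371 of 1809 A10 genes tested (75.8%), against 69.3% of all genes tested, and 786 of them were higher and 585 lower in SX3; 579 (32.0%) differed at least 2-fold, against 26.3% of all. Calls here and below are adjusted p-values under 0.05 from the edgeR quasi-likelihood test, adjusted over all genes of the table. Slike and Zlike, the contrast for which the chromosome was chosen, differed at 793 of 1786 genes (44.4%), where the figure over all genes is 27.2%, with 404 higher and 389 lower in Slike; 207 (11.6%) differed at least 2-fold, where it is 4.21% over all. The difference between both contrasts, (Slike minus Zlike) minus (SX3 minus ZS11), was called for 965 of 1861 genes (51.9%), against 53.3% of all.

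Each backcross class was also set against each parent in a fit over all 12 libraries. Slike differed from ZS11 at 1194 of 1861 A10 genes (64.2%; 54.8% of all genes) and from SX3 at 998 (53.6%; 53.7% of all). Zlike differed from ZS11 at 920 (49.4%; 46% of all) and from SX3 at 1249 (67.1%; 59.8% of all).

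To place the backcross classes between the parents, a scale position was computed for each gene as the difference of the class from ZS11 divided by that of SX3 from ZS11, on mean log2(CPM + 0.5), so that 0 is the ZS11 level and 1 the SX3 level. It was read only at informative genes: called between the parents, at least 2-fold apart, and at 1 CPM or more in a parent. A10 has 502 such genes, 271 higher and 231 lower in SX3. Their median position was 0.622 in Slike and 0.155 in Zlike. By library it was 0.605, 0.620 and 0.618 in Slike and 0.166, 0.170 and 0.180 in Zlike, so the classes did not overlap. On the other 18 chromosomes the Slike median ran from 0.224 to 0.547 and the Zlike median from 0.0958 to 0.406.

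A gene is called contrasting here where Slike lay at 0.67 or more and Zlike at 0.33 or less. On A10 89 informative genes (17.7%) were contrasting, and on the other chromosomes between 1.22% and 5.91% with a median of 3.03%. The commonest combination on A10 was a ZS11-like Zlike with Slike between the parents (162 genes), followed by contrasting genes, by both classes ZS11-like (74), by Slike SX3-like with Zlike between (63) and by both SX3-like (58). No gene had a ZS11-like Slike and an SX3-like Zlike. Of the 502 genes 477 were tested in the backcross. Slike minus Zlike was called at 354, 343 times in the direction of the parents and 11 times against it; that is 70.5% of the informative genes, where the other chromosomes had 37.4% to 60.8%. The percentages per chromosome are drawn in the bar chart of contrasting genes.

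**Figure D1:**
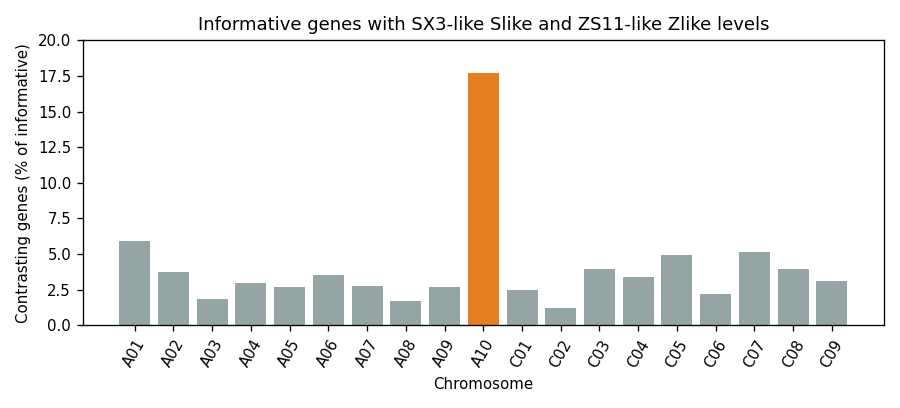
Percentage of informative genes on each chromosome (vertical axis, %) at which Slike lay at 0.67 or more and Zlike at 0.33 or less between the ZS11 and SX3 levels. A10 (orange) stands at 17.7%, the other 18 chromosomes (grey) between 1.22% and 5.91%; the bars are descriptions of 12 libraries and carry no test.

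The contrast was not even along the chromosome. Among 1-Mb bins with 20 or more informative genes, the share of contrasting ones was highest between 17 and 19 Mb, with 11 of 22 and 19 of 41 in 2 consecutive bins, and there, from 18 to 19 Mb, 66 of 91 tested genes (72.5%) were called between Slike and Zlike. The bin from 5 to 6 Mb had 2 of only 3. In the first Mb of the chromosome, Slike had a median position of only 0.339, and 1 of 36 informative genes was contrasting. From 1 to 2 Mb, 26 of 104 tested genes (25%) were called. From 7 to 12 Mb no gene reached 1 CPM in any group, and the next informative gene lay beyond 13 Mb. Beyond 24 Mb the bin medians of Zlike were 0.401 to 0.610 and those of Slike 0.674 to 0.784. On this scale these medians lay closer together than from 17 to 19 Mb. Calls between Slike and Zlike were no rarer there: 166 of 373 tested genes (44.5%) from 24071485 on, and 627 of 1413 (44.4%) before it.

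**Figure D2:**
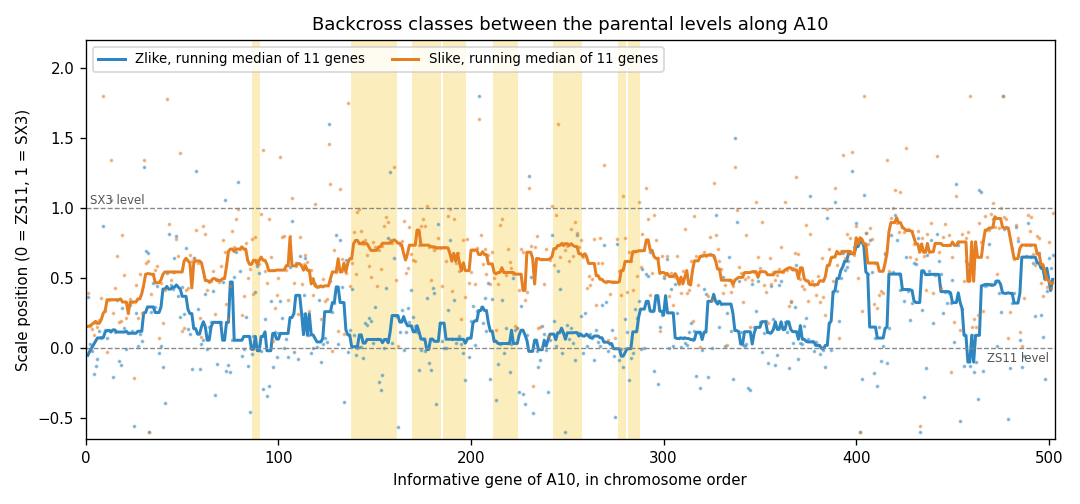
Scale position (vertical axis, 0 = ZS11 level, 1 = SX3 level, no unit) of Zlike (blue) and Slike (orange) at the 502 informative genes of A10 in chromosome order (horizontal axis). Points are genes, with values past -0.6 or 1.8 drawn at those limits, and lines are running medians of 11 genes. The shaded bands are the 8 contrasting stretches, where the running median of Slike minus Zlike is 0.5 or more. In the first band the medians of its own genes are closer, 0.614 in Slike and 0.472 in Zlike.

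A contrasting stretch was defined as 3 or more consecutive informative genes at which the running median over 11 genes of Slike minus Zlike was 0.5 or more. There were 8, with 93 informative genes and 3.96 Mb in all; 39 of their genes were contrasting, 70 were higher and 23 lower in SX3. The remaining 409 informative genes held 50 contrasting ones, 201 higher and 208 lower in SX3. At the 16 edges the running median was 0.504 to 0.803 at the last gene inside and 0.386 to 0.493 at the first gene outside. These values lie on either side of 0.5 by definition, and a running median over 11 genes smooths an abrupt change. They cannot show whether an edge was sharp or gradual, and edges are uncertain by about 5 informative genes on either side.

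The longest run of contrast began between SKIP6 (16463546), an F-box protein gene, and NOP2 (16636678), an rRNA methyltransferase gene, and ended between UBP23, a ubiquitin protease gene whose last base is 17938712, and RTNLB21 (17944657), a reticulon gene. Over its 24 informative genes the library medians were 0.734, 0.758 and 0.710 in Slike and 0.101, 0.132 and 0.0766 in Zlike. A second began after engB (18066704) at RPS4D (18087506) and ended with the phosphatase gene TOPP2 (last base 18528594), with 0.771, 0.698 and 0.797 in Slike and 0.137, 0.151 and 0.0677 in Zlike over 15 genes. RABA2D (18533848), a small GTPase gene with Slike at 0.448 and Zlike at 0.0504, was the only informative gene between this stretch and the next, which ran over 12 genes from BnaA10G0147400ZS (18553893) to PCMP-E1 (last base 18731530).

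Further along, 13 genes from REV (19404852) to At5g41620 (last base 19844456) had lower Slike medians, 0.534, 0.553 and 0.531, beside 0.0459, 0.0684 and 0.0578 in Zlike. The stretch with the largest share of contrasting genes, 9 of 15, ran from the copper transporter gene COPT5 (20297752) to TUBA1 (last base 20593545), with 0.747, 0.773 and 0.778 in Slike and 0.125, 0.0722 and 0.177 in Zlike. Short runs of 4 and 6 genes followed from SPL7 (21008174), a regulator of copper homeostasis, to BnaA10G0185600ZS (last base 21047139) and from DVR (21073089), an enzyme of chlorophyll synthesis, to BnaA10G0187800ZS (last base 21179166), with only BAM9 (21066528) between them. Every gene in these 7 stretches that was called in the backcross moved in the direction of the parents. A stretch is defined by Slike minus Zlike in that direction, so this is largely built in. Over all informative A10 genes it held for 343 of 354 calls.

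The stretch nearest to the start, 4 genes between Tgs1 (4156020) and CAO (last base 5317500), differed from the others. None of its genes was contrasting, and its own median was 0.614 in Slike and 0.472 in Zlike, so its running median came from informative neighbours outside it, such as THO5A with 0.782 in Slike and -0.0382 in Zlike on one side and SGRL with 0.962 and -0.0167 on the other. In 1 run near the start and 1 beyond 24 Mb the medians of both classes lay on the same side of the scale. Over 10 genes from 132470 to 291673 both were ZS11-like, with 0.193 in Slike and 0.0513 in Zlike, although 7 of the 10 were called between the classes. Over 9 genes from 24146061 to 24252778 both were SX3-like, with 0.675 and 0.727, and 3 were called. Both names depend on the log2 scale: on a linear scale Slike lay at 0.363 in the former run, and Slike and Zlike lay at 0.578 and 0.596 in the latter, above 0.33 and below 0.67 and so outside what the names ask for.

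The genes inside the stretches were of unrelated roles, and several were abundant. HIS2B (BnaA10G0161600ZS, A10 19592672 to 19593097), which encodes the core histone H2B, stood at 5.05, 3.17 and 4.95 CPM in the ZS11 libraries and 328, 312 and 321 in SX3, beside 3.52, 6.63 and 5.45 in Zlike and 194, 204 and 192 in Slike. ZS11 and Zlike overlapped at the bottom, SX3 was highest in every library, and Slike lay apart from all of them. The log2 difference was 6.18 ± 0.05 (SE, n = 3) between the parents and 5.23 ± 0.06 between the classes. Slike was below SX3 by log2 -0.70 ± 0.03.

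The gene fhit (BnaA10G0138300ZS, 18037300 to 18038215), named for a hydrolase of diadenosine polyphosphates, lies outside the stretches, in the gap between 17938712 and 18087506, and showed the same arrangement. It was at 0.755, 0.711 and 0.212 CPM in ZS11 and 27.4, 26.4 and 25.1 in SX3, beside 0.276, 1.21 and 0.215 in Zlike and 19.8, 19.0 and 19.2 in Slike. ZS11 and Zlike overlapped near 0, and the backcross difference (log2 5.02 ± 0.19) was not shown to differ from the parental one (5.49 ± 0.16; interaction -0.47 ± 0.43, edgeR adjusted p = 0.376).

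A pair of neighbouring alpha-tubulin genes, whose products build microtubules, moved together in the stretch that ends at 20593545. TUBA1 (BnaA10G0177800ZS) was at 29.7, 34.5 and 28.7 CPM in ZS11 and 142, 144 and 146 in SX3, beside 43.6, 45.6 and 44.0 in Zlike and 104, 99.0 and 102 in Slike. TUBA5 (BnaA10G0177700ZS) was at 21.3, 20.7 and 22.6, at 107, 110 and 104, at 26.2, 25.4 and 25.9 and at 71.5, 67.4 and 69.1 in the same order. In both genes all 4 groups were separate, with Zlike just above ZS11 and Slike below SX3. The backcross difference was log2 1.20 ± 0.05 for TUBA1, against 2.22 ± 0.04 between the parents. Tubulin genes are similar in sequence, and reads of near-identical copies may have been split between genes, which holds for every homoeolog pair here.

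The stretches that begin at 16636678 and at 18087506 held, among others, 3 ribosomal protein genes. RPS30A (BnaA10G0126000ZS, 17101811 to 17102509), of the small subunit, was at 12.0, 13.9 and 14.4 CPM in ZS11 and 97.8, 94.3 and 92.5 in SX3, beside 16.8, 20.1 and 18.9 in Zlike and 47.3, 52.0 and 49.2 in Slike. RPL31C (BnaA10G0126200ZS, from 17106286), of the large subunit, and RPS4D (BnaA10G0140200ZS) stood in the same order, at 46.8 ± 1.39, 178 ± 3.18, 62.6 ± 1.63 and 103 ± 1.47 CPM (mean ± SD, n = 3) for RPL31C and at 100 ± 4.09, 297 ± 7.37, 128 ± 2.07 and 199 ± 8.77 for RPS4D. In all of them Zlike lay above ZS11 by less than it lay below Slike. The gene A4 (BnaA10G0156600ZS), for the translation elongation factor EF1-alpha, was just outside a stretch and gave 373 ± 5.96, 971 ± 10.2, 420 ± 2.5 and 620 ± 7.08 CPM.

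Fewer stretch genes were lower in SX3. TOPP2, for a protein phosphatase of type 1, was at 16.1 CPM in ZS11, 5.15 in SX3, 13.2 in Zlike and 7.11 in Slike on average, with BnaA10G0146800ZS as its identifier. REV (BnaA10G0159600ZS, 19404852 to 19406009), named for REVOLUTA, a homeodomain-leucine zipper regulator of meristems and of the upper side of leaves, was at 13.9, 13.2 and 16.4 CPM in ZS11 and 2.44, 2.46 and 2.49 in SX3, beside 14.8, 12.9 and 12.1 in Zlike and 6.29, 6.23 and 5.80 in Slike. ZS11 and Zlike overlapped, and Slike lay between them and SX3. The annotated neighbour BnaA10G0159500ZS, also named REV and ending at 19404850 on the same strand, did not share this pattern, with 20.04 ± 0.473, 16.1 ± 1.12, 12.8 ± 0.961 and 15.1 ± 1.36 CPM. The 2 models lie end to end, and whether they are parts of a single gene was not tested. The other REV model on A10, BnaA10G0102400ZS, was at 13.2 ± 0.759, 11.7 ± 0.989, 14.3 ± 1.46 and 13.8 ± 1.82 CPM and passed no test between the parents or the classes, except that without SX3 replicate 1 its parental log2 difference of -0.25 was called.

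**Figure D3:**
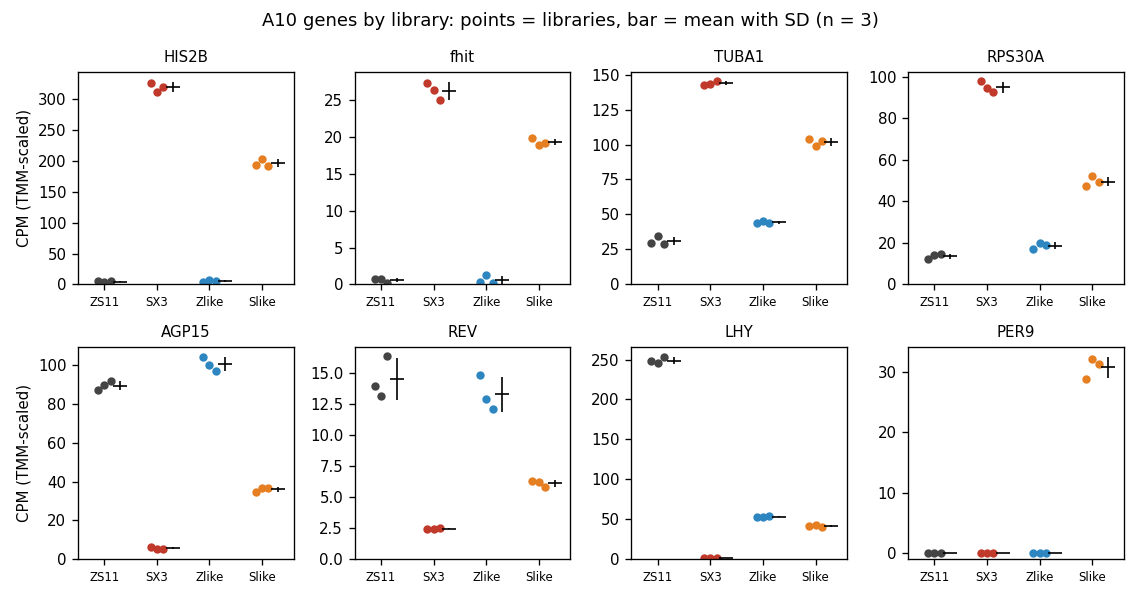
Level (vertical axes, TMM-scaled CPM, each from its own scale) of 8 A10 genes in the 3 libraries of ZS11, SX3, Zlike and Slike; points are libraries and crosses the mean with SD (n = 3). HIS2B, fhit, TUBA1 and RPS30A are high in SX3 and Slike, AGP15 and REV (BnaA10G0159600ZS) low there, LHY lies between the parents in both classes, and PER9 is above 0 only in Slike.

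Genes with no counts in a parent showed the contrast most directly; the single genes in this paragraph were chosen after their values were seen. Of 6 A10 genes at 0 in all ZS11 libraries and at 1 CPM or more in SX3, 5 were at 0 in Zlike. None was at 0 in Slike, where the median level was 0.562 of that in SX3. On each other chromosome 0 to 4 such genes were at 0 in Zlike, as in 4 of 17 on C04, 2 of 9 on A02 and 2 of 79 on A01. The median Slike level there was 0.234 to 0.488 of that in SX3. CCT1 (BnaA10G0087100ZS, 13776461 to 13778512), named for a subunit of the cytosolic chaperonin, was at 0 in ZS11 and Zlike, at 9.18, 9.17 and 7.11 CPM in SX3 and at 4.39, 3.99 and 5.33 in Slike. Against a floor of 3 counts per library it was at least 43.9-fold higher in SX3 than in ZS11 and at least 22.4-fold higher in Slike than in Zlike.

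The adjacent genes BnaA10G0124600ZS and BnaA10G0124700ZS (17039615 to 17040168), which have no protein match, were near the SX3 level in Slike. BnaA10G0124600ZS was at 18.7, 17.8 and 19.7 CPM in SX3 and 17.8, 17.3 and 15.9 in Slike, with 0 elsewhere, and was at least 83.1-fold higher in Slike than in Zlike. In the other direction, 15 genes were at 0 in SX3 and at 1 CPM or more in ZS11. None of them was at 0 in a backcross class, and the median level was 1.04 of that in ZS11 in Zlike and 0.431 in Slike. On the other chromosomes these medians were 0.772 to 0.991 in Zlike and 0.513 to 0.706 in Slike, and only C02 had any such gene at 0 in a class. BnaA10G0021000ZS (1169096 to 1170028, no protein match) was at 44.4, 46.4 and 42.1 CPM in ZS11 and at 0 in every SX3 library, beside 50.3, 52.4 and 53.0 in Zlike and 31.8, 31.2 and 31.1 in Slike, at least 215-fold lower in SX3 than in ZS11.

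Outside the stretches lay further genes of smallest p that were lower in SX3 or in Slike. In LHY, described with the clock genes, Zlike was far below ZS11; the others follow. AGP15 (BnaA10G0233200ZS, 23336818 to 23337012), for a short arabinogalactan peptide of the cell surface, was at 87.0, 89.6 and 91.9 CPM in ZS11 and 6.22, 5.13 and 5.33 in SX3, beside 104, 100 and 97.2 in Zlike and 34.5, 36.9 and 36.6 in Slike. All 4 groups were separate, Zlike being the highest. The gene nep1 (BnaA10G0258600ZS), for an aspartic protease, was at 270 ± 1.89, 51.3 ± 2.64, 315 ± 7.11 and 137 ± 4.24 CPM in this order of groups, YLS9 (BnaA10G0232200ZS) at 52.2 ± 2.11, 4.68 ± 0.325, 46.3 ± 1.84 and 16.7 ± 0.349, and At5g08680 (BnaA10G0251400ZS), for a mitochondrial ATP synthase beta subunit, at 55.7 ± 0.798, 9.53 ± 0.441, 81.2 ± 1.54 and 35.2 ± 2.00. LIP (BnaA10G0062000ZS), a lipase gene within the first stretch, had Zlike further from ZS11, with 241 ± 2.74, 23.4 ± 1.61, 94.0 ± 2.14 and 37.8 ± 0.407 CPM.

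Over 51 genes at a time, irrespective of the parents, Slike was above Zlike by a running median of 0.3 or more on the log2 scale at 87 consecutive genes from 17772461 to 18599351, and below it by as much at 15 genes from 23205101 to 23266460. SX3 was below ZS11 by as much over 75 genes from 22847806 to 23340634, where the median was -0.66, and Slike was below ZS11 over 51 genes there, with -0.42. These are medians, and the runs also held genes of the other sign, such as TOPP2 in the first of them, lower in SX3 and in Slike.

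A different arrangement began near 24 Mb. A step between BnaA10G0247100ZS (24064842) and BnaA10G0247200ZS (24071485) was placed where the Zlike values changed most. From it to the end of the chromosome lay 373 genes at 1 CPM or more in some group. In SX3, Zlike and Slike alike, most of these genes lay above ZS11. The median log2 difference from ZS11 was 0.56 in SX3, 0.53 in Zlike and 0.55 in Slike, equal to 1.48-, 1.45- and 1.46-fold, and 76.1%, 89.8% and 83.6% of the genes lay above ZS11. Before the step the medians over 1434 genes were 0.04, -0.02 and 0.02.

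By library the medians beyond the step were 0.57, 0.52 and 0.57 in SX3, 0.54, 0.53 and 0.57 in Zlike, 0.59, 0.54 and 0.54 in Slike and 0.01, -0.01 and 0.01 in ZS11. All 9 libraries of the other groups lay apart from ZS11 and overlapped each other. Zlike differed from ZS11 at 298 of 380 tested genes beyond the step, 282 higher (74.2%) and 16 lower, where 23.1% of all genes of the table were called higher; before the step it was 280 higher and 342 lower of 1481. Since the step was placed by the Zlike values, these counts describe it and give no support of their own. Each of these 3 comparisons uses the same ZS11 libraries, and a value low in ZS11 and a value high in the others cannot be told apart.

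**Figure D4:**
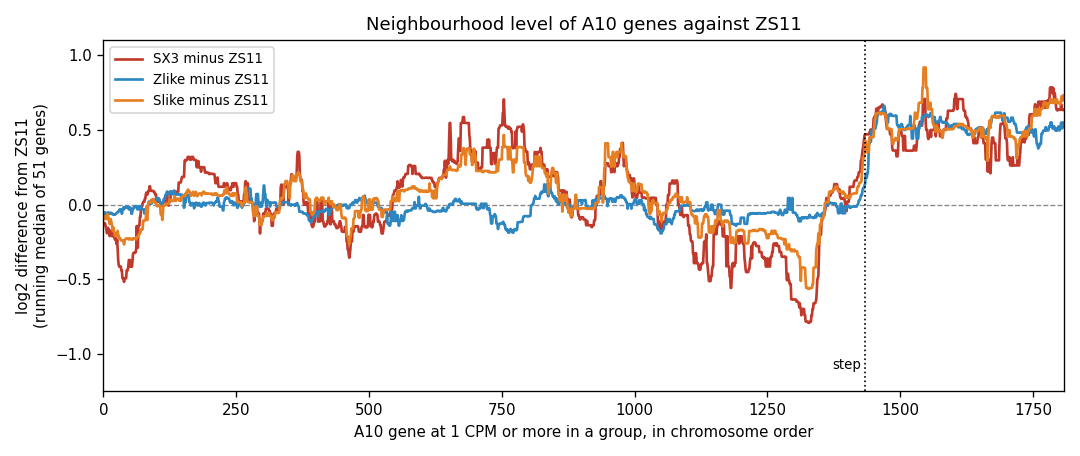
Running median over 51 genes of the log2 difference from ZS11 (vertical axis, log2 of TMM CPM + 0.5) for SX3 (red), Zlike (blue) and Slike (orange) along the 1807 A10 genes at 1 CPM or more in a group (horizontal axis, chromosome order). Zlike stays near 0 up to the step (dotted line) and lies near 0.53 beyond it, together with SX3 and Slike.

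The step was not seen in the homoeologs. For 84 A10 genes beyond it that share their best protein match with exactly 1 gene of the C chromosomes, the partners lay at a median log2 difference from ZS11 of 0.00 to 0.07 in the Zlike libraries, 0.01 to 0.11 in SX3 and 0.09 to 0.12 in Slike, while the A10 copies lay at 0.51 to 0.68. Genes of many functions took part. The ribosomal protein gene RPS4B (BnaA10G0259300ZS, from 24553764) was at 63.7, 60.02 and 65.1 CPM in ZS11 and 167, 169 and 169 in SX3, beside 126, 124 and 116 in Zlike and 123, 119 and 127 in Slike. Its classes overlapped each other and lay apart from both parents.

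ERL2 (BnaA10G0259800ZS), a receptor kinase gene of the ERECTA family, which acts in growth of inflorescence stems and in stomatal patterning, was at 29.9 ± 1.26 CPM in ZS11, 49.1 ± 2.31 in SX3, 65.1 ± 4.99 in Zlike and 63.2 ± 1.52 in Slike. BLH9 (BnaA10G0299500ZS), a BEL1-like homeodomain gene known as a partner of meristem KNOX proteins, was at 24.5 ± 0.999, 36.5 ± 1.04, 45.7 ± 1.72 and 41.1 ± 1.22. BOA (BnaA10G0277700ZS), a clock transcription factor gene, was at 6.80 ± 0.31, 10.3 ± 0.118, 15.6 ± 1.19 and 10.6 ± 0.484. In these 3 genes Zlike was above ZS11 by log2 1.12 ± 0.05, 0.90 ± 0.06 and 1.20 ± 0.11, and for each the edgeR test called it; the largest of the adjusted p-values was 4.32e-19.

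**Figure D5:**
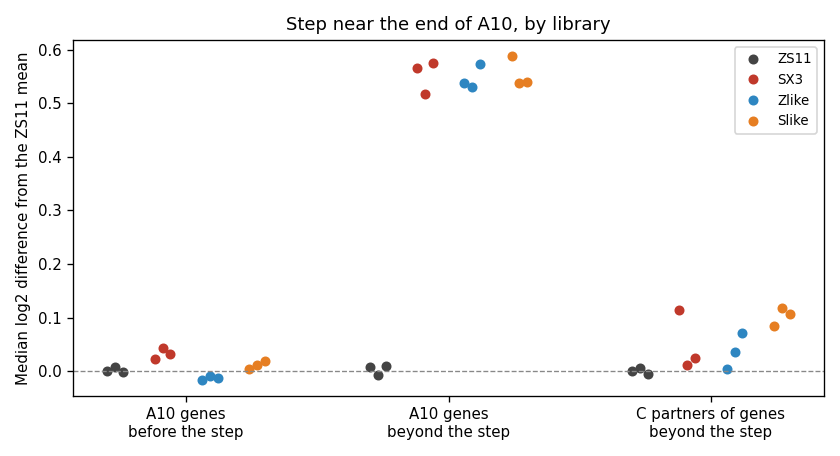
Median log2 difference from the ZS11 mean (vertical axis) in each of the 12 libraries, for A10 genes before the step (1434 genes), A10 genes beyond it (373 genes) and the C partners of genes beyond it (84 pairs); points are libraries. Only the middle set lies near 0.5 in the SX3, Zlike and Slike libraries.

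The C partners of A10 genes were also examined in the backcross contrast. A10 had 514 genes with a single C partner by protein match, 314 on C09 and 132 on C05. For 99 pairs whose A10 copy was informative, Slike minus Zlike, signed by the direction of the parents, had a median of 0.48 at the A10 copy, 0.02 at the partner and 0.21 for the summed counts. In the 13 pairs within contrasting stretches it was 0.66, 0.05 and 0.22. In these medians the classes differed at the A10 copies and hardly at the partners. The pairs as a whole differed by less than the A10 copies alone. The A10 copies were chosen by their parental difference, and those in stretches by Slike minus Zlike itself, while the partners were not chosen by their values. A larger median at the A10 copies is in part set by that choice, so these medians describe the chosen pairs and test nothing.

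Lists of genes by role were then counted; they had been chosen with earlier results known and are read beside the share called among all genes. Of 11 flowering-time genes tested, 5 were higher and 3 lower in SX3 (33.4% and 35.9% of all genes), and of 9 tested in the backcross 2 were higher and 0 lower in Slike (13.8% and 13.4% of all). AGL15 (BnaA10G0219200ZS), a MADS-box gene of embryo and flower timing, was at 1.51, 2.26 and 1.48 CPM in ZS11 and 7.41, 8.16 and 7.88 in SX3, beside 2.97, 2.04 and 3.08 in Zlike and 8.78, 7.28 and 9.04 in Slike, with SX3 and Slike overlapping high and ZS11 and Zlike overlapping low. It rose by log2 2.15 ± 0.18 between the parents and 1.64 ± 0.16 between the classes. EMF2, a Polycomb gene that holds back flowering, was at 10.5 ± 0.774, 16.1 ± 0.43, 13.5 ± 1.69 and 17.0 ± 1.92.

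The A10 copy of FLC (BnaA10G0244800ZS), the repressor of flowering that vernalization silences, was at 22.4, 19.7 and 21 CPM in ZS11 and 16.0, 13.9 and 12.5 in SX3, beside 20.6, 18.8 and 18.9 in Zlike and 18.7, 20.8 and 18.7 in Slike. It fell in SX3 by 0.58 ± 0.09 on the log2 scale, and the classes overlapped (edgeR adjusted p = 0.996). CO and COL1, adjacent genes at 22123527 to 22133811 for CONSTANS, the link between day length and flowering, and its relative, went opposite ways between the parents: CO (BnaA10G0206200ZS) was at 0.0665 ± 0.0711 CPM in ZS11 and 1.87 ± 0.428 in SX3, and COL1 (BnaA10G0206100ZS) at 2.07 ± 0.732 and 0.163 ± 0.189. Both were below 1 CPM in Zlike and Slike and were not tested there.

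Of 3 floral identity genes tested 2 were higher in SX3 (33.4% of all genes), and of 4 tested in the backcross 2 were higher in Slike (13.8% of all). SEP1 (BnaA10G0206600ZS), a MADS-box partner of the floral organ regulators, was at 0.290, 0.259 and 0.141 CPM in ZS11 and 8.59, 9.68 and 9.54 in SX3, beside 3.31, 4.33 and 2.87 in Zlike and 13.8, 16.3 and 15.4 in Slike. No groups overlapped, and Slike was the highest, above SX3. Zlike was above ZS11 by log2 3.86 ± 0.32 (edgeR adjusted p = 1.35e-21), and its Zlike position of 0.653 stood beside a running median of Zlike of 0.386 at that place. The anther markers AMS and DYT1 were also higher in Slike. MS1 was at 0 in every library, and the anther receptor gene EMS1, summed over 4 genes, was at 148 CPM in both Zlike and Slike. SEP1 was above ZS11 in SX3 and Zlike too, where AMS and DYT1 were at or near 0. The part of anther tissue in this was not tested. TFL1 (BnaA10G0288700ZS), the antagonist of floral identity in the shoot tip, was at 3.48 ± 0.58, 5.99 ± 0.461, 2.95 ± 0.165 and 3.82 ± 0.725 CPM; of the parental and the backcross contrast it was called only in the former.

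Of 6 meristem genes, 2 were higher and 3 lower in SX3 (33.4% and 35.9% of all genes). In Slike 1 was higher and 3 were lower than in Zlike (13.8% and 13.4% of all). The higher one, REV (BnaA10G0159500ZS), was no longer called under 8 alternatives, DESeq2 and upper-quartile scaling among them, and BLH9, 1 of the 3 lower ones, under 5, DESeq2 among them. The sum of the meristem markers named above was lower in SX3 than in ZS11, although KNAT1, WUS and CLV3 were higher there, and lower in Slike than in Zlike, although WUS was higher; its part in this was not tested. CRN (BnaA10G0222900ZS), for the CORYNE pseudokinase that carries the CLAVATA signal, was at 19.1, 16.7 and 16.4 CPM in ZS11 and 9.18, 10.5 and 10.4 in SX3, beside 20.5, 16.8 and 21.8 in Zlike and 16.2, 14.2 and 14.8 in Slike, with ZS11 and Zlike overlapping. RAX1 (BnaA10G0160500ZS), a MYB gene of axillary meristems, was at 0.698 ± 0.254, 2.02 ± 0.321, 0.590 ± 0.147 and 1.17 ± 0.153. It belongs to the list of branching genes. Its backcross call (log2 0.98, edgeR adjusted p = 0.0483) was lost with DESeq2, without a filter on low counts, with a replicate block, and without any single library of the classes except Zlike replicate 1, while the log2 difference was 0.88 to 1.08 in these settings.

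All 3 subtilases on A10, serine proteases of the cell wall and the family the series title names, reached 1 CPM. SBT1.7 (BnaA10G0088200ZS, 13881853 to 13884668), known for its part in seed mucilage release in Arabidopsis, was at 131, 133 and 132 CPM in ZS11 and 106, 107 and 108 in SX3, beside 121, 119 and 124 in Zlike and 164, 161 and 159 in Slike. All 4 groups were separate, and Slike lay above both parents: it fell by 0.30 ± 0.03 on the log2 scale in SX3 against ZS11 and rose by 0.41 ± 0.03 in Slike against Zlike. SBT1.2 (BnaA10G0023700ZS), whose Arabidopsis namesake limits stomatal density, was at 0.589 ± 0.208, 0.911 ± 0.196, 0.787 ± 0.39 and 2.79 ± 0.26 CPM, called only in the backcross among these 2 contrasts. SBTI1.1 (BnaA10G0001700ZS) was at 2.39 ± 0.507 CPM in ZS11, 4.14 ± 1.07 in SX3, 1.58 ± 0.242 in Zlike and 2.18 ± 0.118 in Slike, called between the parents and not between the classes.

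Of 35 ribosomal protein genes, 22 were higher and 11 lower in SX3 (33.4% and 35.9% of all genes). In Slike 13 were higher and 10 lower than in Zlike (13.8% and 13.4% of all). In Zlike 25 were higher and 1 lower than in ZS11 (23.1% and 22.9% of all). Beyond the step all 6 tested were higher in Zlike than in ZS11, with a median log2 of 1.07, and before it 19 of 29, with 0.31. Of all tested A10 genes 74.2% were higher in Zlike beyond the step and 18.9% before it. Of 3 histone genes, HIS2B was higher and the linker histone gene H1.2 (BnaA10G0047900ZS, named At2g30620) lower in both contrasts. H1.2 was at 267, 270 and 281 CPM in ZS11 and 114, 111 and 113 in SX3, beside 370, 371 and 358 in Zlike and 213, 221 and 223 in Slike, so that Zlike lay above ZS11 and Slike between the parents.

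Of 8 cell division genes 4 were higher and 0 lower in SX3 (33.4% and 35.9% of all genes). In Slike 1 was higher than in Zlike (13.8% of all). It was CYCA3-2 (BnaA10G0059700ZS), an A-type cyclin gene, at 11.3 ± 1.82, 29.5 ± 1.97, 14 ± 0.571 and 23.2 ± 0.574 CPM. Among hormone genes 6 of 16 were higher and 4 lower in SX3 (33.4% and 35.9% of all genes). In the backcross 3 of 13 were higher and 2 lower in Slike (13.8% and 13.4% of all). RGL3 (BnaA10G0194400ZS), a DELLA repressor of gibberellin responses, was at 1.00 ± 0.039, 2.66 ± 0.768, 0.762 ± 0.223 and 1.90 ± 0.249 CPM, and LOG8 (BnaA10G0231600ZS), an enzyme gene of cytokinin activation, at 21.3 ± 0.659, 6.27 ± 0.472, 5.61 ± 0.644 and 7.87 ± 0.434. In LOG8 both classes lay near SX3, at scale positions of 1.09 in Zlike and 0.818 in Slike.

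Among photosynthesis genes the classes had no common order. Of 5 tested, 4 were lower and 1 higher in SX3 (35.9% and 33.4% of all genes). In Slike 2 were higher and 1 lower than in Zlike (13.8% and 13.4% of all). In Zlike 4 were lower than in ZS11 (22.9% of all), in the same direction as the green tissue markers, whose part in this was not tested. CAB13 (BnaA10G0105600ZS), a chlorophyll-binding antenna gene, was at 184, 184 and 183 CPM in ZS11 and 66.7, 68.6 and 67.0 in SX3, beside 78.9, 84.2 and 82.5 in Zlike and 108, 103 and 109 in Slike. No groups overlapped, and Zlike, at 0.807 on the scale, lay nearer to SX3 than Slike did, at 0.546. PSBW (BnaA10G0048600ZS), for a small subunit of photosystem II, kept the order of the stretches instead, at 7.61 ± 0.411, 0.471 ± 0.304, 4.98 ± 1.00 and 2.42 ± 0.358 CPM.

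Of 5 clock genes 3 were lower and 1 higher in SX3 (35.9% and 33.4% of all genes). LHY (BnaA10G0008600ZS, 433042 to 436969), a morning-phased MYB regulator, was at 248, 245 and 253 CPM in ZS11 and 1.11, 0.939 and 1.42 in SX3, beside 52.9, 52.5 and 53.5 in Zlike and 42.1, 42.8 and 40.4 in Slike. Both classes lay between the parents, at 0.307 and 0.353 on the log2 scale, and they differed by log2 -0.34 ± 0.05 where the parents differed by -7.71 ± 0.07. RVE1 (BnaA10G0195900ZS), a relative of LHY, was at 9.96 ± 1.41, 0.789 ± 0.0581, 2.93 ± 0.16 and 2.92 ± 0.269 CPM, with both classes at 0.53. The time of day at sampling is not in the labels and its part in this was not tested.

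Other genes had both classes at a like level amid neighbours that differed. At5g18840 (BnaA10G0185000ZS, 21003148 to 21006473), for a sugar transporter of the ERD6 family and the last informative gene before the stretch at 21 Mb, was at 0.174, 0.323 and 0.424 CPM in ZS11 and 39.0, 44.4 and 40.5 in SX3, beside 15.0, 14.3 and 15.5 in Zlike and 17.1, 16.6 and 17.2 in Slike. Zlike was 5.60 ± 0.20 above ZS11 on the log2 scale, and the classes were not called apart (0.18 ± 0.09, edgeR adjusted p = 0.116; in the interaction the log2 difference was -6.88 ± 0.21, adjusted p = 3.02e-60). Its informative neighbour SPL7 had Zlike at -0.0798 and Slike at 0.556. PDC2 (BnaA10G0111200ZS), for pyruvate decarboxylase, was at 187 ± 1.48, 57.2 ± 0.723, 89.0 ± 8.38 and 99.0 ± 3.50 CPM.

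By the rule for unlike neighbours, a Slike minus Zlike scale difference 1 or more from the running median, 8 informative genes stood out, 7 with a larger and 1 with a smaller difference. The scale divides by the parental difference, so the same log2 change counts for more where the parents differ little. At all 8 the parental log2 difference was 1.56 or less in size, in the lower part of the informative range. How far that division alone set these 8 apart was not tested. CHI3 (BnaA10G0276200ZS), of the chalcone isomerase family of flavonoid synthesis, was at 0.116, 0.453 and 1.06 CPM in ZS11 and 2.00, 2.24 and 2.13 in SX3, beside 0.345, 0.191 and 0.573 in Zlike and 5.34, 7.07 and 7.15 in Slike, a scale difference of 2.11 amid a running median of 0.377. FLS1 (BnaA10G0251700ZS), for flavonol synthase, was at 0.810 ± 0.0864, 2.53 ± 0.621, 2.75 ± 0.374 and 8.78 ± 1.23 CPM. In both, Slike exceeded SX3.

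TATB, ACO4 and KCS17, for a thylakoid protein translocase, an ethylene-forming oxidase and a synthase of very long fatty acids, also had Slike above SX3, at 1.90 ± 0.332 against 1.16 ± 0.262 CPM for TATB, 6.72 ± 0.411 against 4.58 ± 0.707 for ACO4 and 9.17 ± 0.543 against 4.79 ± 1.64 for KCS17. Of the remaining 3, named after their values were seen, IAMT1 (BnaA10G0113300ZS), which methylates auxin, and BnaA10G0067700ZS, matched to a yeast mitochondrial chaperone, likewise had Slike above SX3, at 2.38 ± 0.782 against 1.15 ± 0.121 and 12.8 ± 1.04 against 9.23 ± 0.926 CPM. CIPK21 (BnaA10G0134200ZS), a calcium-signalling kinase gene within a contrasting stretch, had Zlike at 1.26 and Slike at 0.775, both on the SX3 side, with 1.16, 3.36 and 1.84 CPM in ZS11 and 0.552, 0.382 and 0.358 in Zlike.

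Several genes that were higher in Slike than in Zlike had no such difference between the parents. PER9 (BnaA10G0062900ZS, 4433526 to 4435065), a peroxidase gene, had no counts in ZS11, SX3 and Zlike and stood at 28.9, 32.2 and 31.3 CPM in Slike, at least 151-fold higher than in Zlike. OMT1 (BnaA10G0104500ZS), for a methyltransferase of phenylpropanoids and flavonoids, was at 2.85, 1.81 and 3.25 CPM in ZS11 and 2.89, 1.66 and 2.49 in SX3, beside 0.276, 0.255 and 0.143 in Zlike and 16.2, 15.9 and 15.4 in Slike. The parents overlapped, Zlike lay below and Slike above both. A9 (BnaA10G0260400ZS), a gene expressed in the tapetum of anthers, was at 2.12, 1.54 and 1.82 CPM in Slike, at least 8.94-fold higher than in Zlike, and at 0 elsewhere.

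In all, 4 A10 genes were at 1 CPM or more in Slike and at 0 in every library of the other groups, namely PER9, A9, MEN-8 and GALM, out of 40 in the whole table; for Zlike there was none on A10 or elsewhere. MEN-8 and GALM were named after their values were seen. These genes were high in the same libraries as AMS and DYT1, which were at or near 0 in the other groups, whereas the anther receptor gene EMS1, summed over 4 genes, was at 152 to 155 CPM in ZS11, 114 to 120 in SX3, 144 to 150 in Zlike and 144 to 153 in Slike. The part of anther tissue in these results was not tested. The A10 copy of EMS1 (BnaA10G0260900ZS), beyond the step, was at 8.18 ± 0.36, 16.3 ± 0.438, 23.9 ± 1.26 and 33.8 ± 3.37 CPM.

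Of the 13456 genes in the authors' deposited table of the parents, 596 lie on A10 (4.43%), and of the 1840 in the authors' deposited table of the classes 203 do (11.0%). In the authors' deposited tables, 334 and 132 of these A10 genes carry the word for down, and all of them had the higher mean count in SX3 or Slike, so the words describe ZS11 and Zlike.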

How the data were processed

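RNA was extracted from apical meristems with a plant RNA kit, per the labels' protocols, and sequenced as 12 libraries, 3 in each of ZS11, SX3, Zlike and Slike. Sample titles gave the groups. The authors deposited read counts per gene in whole numbers, without normalization, per the file headers, and in the same table FPKM values. Recomputed from counts, gene length and library total, FPKM differed from the values the authors deposited by at most 8.4e-15 of the value, so FPKM was not tested. The submitters' processing notes name fastp, HISAT2 and featureCounts and give no versions. Build, strand setting and the handling of multi-mapping reads were not given in the sources used here; gene identifiers end in ZS, and were the genome that of ZS11, SX3 reads lost in alignment and lower SX3 levels could not be told apart. Coordinates are those of the deposited table. The authors also deposited lists for their own comparisons, of which only the direction words were used; their second sheets, and a reference table that shares no usable identifiers, were not used here.

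Tests on counts used edgeR 4.0.16 under R 4.3.3: filterByExpr by group, TMM scaling, and the two-sided quasi-likelihood test with p adjusted by Benjamini-Hochberg across every gene kept, called at an adjusted p under 0.05. The parents, and likewise the classes, were fitted on their own 6 libraries, all other contrasts on 12. Levels are TMM-scaled CPM; log2 levels used a pseudocount of 0.5 CPM. On simulated counts with 200 genes changed 2-fold, the test recovered 97.5% for SX3 against ZS11, 91.5% for Slike against Zlike and 83.5% for the interaction. Genes of the lowest and highest counts were not among those changed, and a single small spread was used for all genes. These rates therefore need not hold for genes of low counts or of larger spread. Scale positions, stretches and figures were computed with Python 3.11.15, pandas 2.3.3, numpy 2.4.6 and matplotlib 3.10.9.

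The members, lists, tests and thresholds were chosen with earlier results of these data known. Named genes were members of the lists at 1 CPM or more, for each direction the 5 annotated genes of smallest p with at least 2-fold, non-overlapping values in each of SX3 against ZS11 and Slike against Zlike, 3 in each direction for the interaction, those at edges of stretches, and, among genes unlike their neighbours, the 5 furthest apart between the parents; others are said to be named after their values were seen. List genes whose protein name showed another gene behind a shared symbol (7 A10 genes) were left out. Alternatives were DESeq2 1.42.0, upper-quartile scaling, no filter, a replicate block, each replicate left out, and other pseudocounts, thresholds and windows; the linear scale and the alternatives for the step near 24 Mb were added after seeing the data. Same-numbered libraries of paired groups had deviations correlated at -0.011 to 0.013, so the numbers do not pair them.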

Additional observations from a re-analysis of the deposited data

Results flagged for a closer look

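For 36 of the 56 A10 genes described by name, the difference between Slike and Zlike had another size or direction than that between SX3 and ZS11, by the edgeR interaction test over 12 libraries (adjusted p under 0.05, where 53.3% of all genes were called). Values below are interaction log2 differences, (Slike minus Zlike) minus (SX3 minus ZS11), negative where the backcross difference lay below the parental one. In 23 genes the backcross difference was smaller, in 2 larger, in 9 of the other sign, and 2 were not tested in the backcross. Some of the named genes were chosen by the smallest p in this same interaction test, and others by the smallest p between the parents. Both the count and the many smaller backcross differences are in part set by that choice and are no result about A10. Genes at 0 counts in every library of a group could not be flagged.

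Among genes higher in SX3 and less so in Slike the values were -6.88 for the sugar transporter gene At5g18840, -3.15 for SEP1, -1.41 for RPS30A, -1.41 for RPS4B, -1.20 for RPL31C, -1.02 for TUBA1, -0.95 for HIS2B, -0.93 for RPS4D, -0.82 for the elongation factor gene A4, -0.65 for CYCA3-2 and -0.49 for EMS1. Among genes lower in SX3 and less so in Slike they were 7.37 for LHY, 3.63 for RVE1, 3.01 for PSBW, 2.53 for AGP15, 2.04 for LIP, 2.00 for YLS9, 1.43 for REV (BnaA10G0159600ZS), 1.34 for At5g08680, 1.20 for nep1, 0.58 for FLC, 0.53 for the histone gene H1.2 and 0.41 for CRN. Genes were sorted into these lists by having the same sign in both contrasts, so their shared direction is no result. In RVE1, FLC and RPS4B the backcross log2 difference itself was only -0.0011, -0.0008 and 0.011. In At5g18840 it was 0.18 and not called.

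The sign of the difference was the other one in BOA (-1.15), ERL2 (-0.76) and BLH9 (-0.73), all beyond the step near 24 Mb, and in REV (BnaA10G0159500ZS; 0.56), SBT1.7 (0.71), CAB13 (1.82), PDC2 (1.86), LOG8 (2.25) and OMT1 (6.24). For ERL2 the backcross difference itself was not called (edgeR adjusted p = 0.55). The backcross difference was the larger one in CHI3 (2.11) and in BnaA10G0067700ZS (0.82). COL1 (3.09) and CIPK21 (2.62) were too low in the classes for the backcross test.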

How the results depend on the processing

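Counts of A10 calls in the 7 contrasts stayed within 1.5 times the reported count under every alternative run. Of their balance, that of Slike against SX3 turned, from 515 higher and 483 lower to 472 and 514 with upper-quartile scaling and 423 and 439 with DESeq2. Slike against Zlike gave 610 calls with DESeq2. Leaving out 1 library gave 1324 to 1356 calls for SX3 against ZS11, 712 to 745 for Slike against Zlike, 920 to 943 for the interaction, 1121 to 1206 for Slike and 833 to 924 for Zlike against ZS11, and 904 to 1012 for Slike and 1184 to 1268 for Zlike against SX3. A replicate block, although the numbers do not pair the libraries, gave 1363, 788 and 959 calls for the first 3, and lost the backcross calls of REV (BnaA10G0159500ZS) and RAX1. The median scale position was 0.631 for Slike and 0.180 for Zlike with upper-quartile scaling, 0.635 and 0.183 at 5 CPM or more in a parent, 0.550 and 0.0644 for genes at least 4-fold apart (log2 of 2), and 0.608 to 0.642 and 0.155 to 0.184 without 1 library. Contrasting genes were 25.4% at a log2 of 2 or more, 15.7% on a linear scale, 43.6% (against 36.7% on A01) with thresholds of 0.5 and 0.5, and 17.1% to 19.0% without 1 library; A10 had the highest share of the 19 chromosomes in every setting. Contrasting stretches held 45 of 328 informative genes with a pseudocount of 2 CPM and 24 of 134 at a log2 of 2 or more. With a threshold of 0.33 they held 286 of 502, and without 1 library 80 to 102 genes, beside 93 of 502 as reported. Their number thus moved more with these settings than with any single library, but the pseudocount and the log2 cut also changed how many genes were informative. The step lay at 24123616, with 367 genes beyond it, without Zlike replicate 3 (median 0.54) and with a pseudocount of 2 CPM (0.46). The cause of these shifts was not tested. Among single genes, backcross calls of REV (BnaA10G0159500ZS), BLH9, RAX1 and EMF2 were lost in some settings, that of PDC2 without Zlike replicate 1, and the parental call of REV (BnaA10G0102400ZS) appeared without SX3 replicate 1.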
